A study of Mus musculus with 10 samples.

Results

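The RNA levels of 8 chemokine receptor genes, Ccr2, Ccr4, Ccr7, Ccr8, Ccr10, Cxcr4, Cxcr5 and Cxcr6, were followed in murine CD8+ T cells and keratinocytes before and after their co-culture. They were found by their exact names in the deposited gene tables, and all 8 of the 25814 genes listed there were present in each of the 10 tables. The tables belong to 5 groups of 2 libraries. Activated T cells were splenic cells isolated with CD8 microbeads and kept with αCD3/CD28 Abs for 1 d. T cells in keratinocyte medium had the same activation followed by 1 d in that medium, which was a mixture of keratinocyte SFM and X-vivo medium by the study's methods. Co-cultured T cells had the same activation followed by 1 d together with keratinocytes. Keratinocytes alone were primary cells from tails of adult mice, and co-cultured keratinocytes were such cells after contact with the activated T cells, which were then washed off. The labels give 1 d for the co-culture of the T cells, whereas the deposited design text gives 1 h. Mice were of the C57/B6 strain, and no group carried a deletion or transgene by its label. Numbered replicates are given by the labels for activated T cells and for the keratinocytes. For the other T-cell groups, the numbers 1 and 2 used here are only names.

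Chemokine receptors are G protein-coupled receptors with 7 membrane-spanning segments, through which leukocytes sense gradients of chemokines and move along them. CCR7 reads CCL19 and CCL21 and directs naive and central memory T cells to lymph nodes. CXCR4 binds CXCL12, CXCR5 binds CXCL13 of B-cell follicles, and CXCR6 binds CXCL16, a ligand that epithelial cells also display on their surface. CCR4, CCR8 and CCR10 are known from T cells of the skin, with CCL17 and CCL22, CCL1 and CCL8, and CCL27 and CCL28 as their ligands, whereas CCR2 reads CCL2 and is best known from monocytes.

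In these genes most of the coding sequence lies in 1 exon, so that few reads cross from one exon to the next. These crossings are shown for 4 genes since such reads tell spliced receptor RNA from other RNA of the same locus, and for Cxcr6 and Ccr10 the results depend on them. In the sequences, taken from GENCODE vM21 transcripts on GRCm38 and written 5′ to 3′, small letters are the last 15 bases of the upstream exon and capitals the first 15 bases of the downstream exon. Ccr7 lies on the minus strand of chromosome 11 (99144196 to 99155077), with exon 1 ending at 99154989 and exon 2 starting at 99149084, and with exon 2 ending at 99149035 and exon 3 starting at 99146034. Both crossings are in its coding part. Cxcr4 lies on the minus strand of chromosome 1 (128588199 to 128592293), and the coding crossing shown here runs from 128592189 to 128589901. In another Cxcr4 transcript the upstream exon ends at 128592195. Cxcr6 lies on the plus strand of chromosome 9 (123806475 to 123811760), and the crossing shown here, from 123806545 to 123809931, joins the 5′ UTR to the exon with the start codon. In another Cxcr6 transcript the downstream exon starts at 123809901. Ccr10 lies on the minus strand of chromosome 11 (101172997 to 101175443) with a coding crossing from 101175400 to 101174678.
Ccr7 exon 1 to 2: gcaccatggacccagGGAAACCCAGGAAAA
Ccr7 exon 2 to 3: cttgtcattttccagGTGTGCTTCTGCCAA
Cxcr4 exon 1 to 2: ccgatcagtgtgagtATATACACTTCTGAT
Cxcr6 exon 1 to 2: tgggcttctcttctgATGCCATGGATGATG
Ccr10 exon 1 to 2: aagcccacagagcagGTCTCCTGGGGACTT

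The libraries held 12864931 to 18019609 exon reads, and 3 reads on 1 kb of exons corresponded to 0.158 to 0.212 RPKM (reads scaled to exon length and library size), a limit that covers counting error only. Replicates differed far beyond sampling noise, with a mean chi-square per degree of freedom between 94.2 and 209. The summed RPKM of the CD8 markers Cd8a and Cd8b1 was 251 to 1096 in the 6 T-cell libraries and 0.224 to 3.16 in the 4 keratinocyte libraries. Summed keratinocyte markers (Krt5, Krt14, Krt1, Krt10, Col17a1 and Trp63) were at 10930 to 15670 RPKM in keratinocytes, at 68.4 and 20.4 in co-cultured T cells, and at 0.874 to 2.37 in the other T-cell libraries. The constant genes Trac and Trbc2 of the T-cell receptor were listed at 0 in all 10 tables. Cd4, the marker of the other T-cell lineage, stood at 16.8 and 102.3 RPKM in activated T cells, at 61.96 to 75.9 in the other T-cell libraries, and at 11.4, 43.5, 15.0 and 84.5 in the keratinocyte libraries. Nothing in the labels says that the libraries of a group came from separate animals, so that p-values measure the spread between these libraries only.

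Ccr7 was the receptor with by far the most RNA in T cells, and the only one of the 8 that passed the test between T cells and keratinocytes. Its RPKM was 205 and 182 in activated T cells, 278 and 383 in T cells in keratinocyte medium, and 319 and 538 in co-cultured T cells. Keratinocytes alone had 2.58 and 10.2 RPKM of Ccr7, and co-cultured keratinocytes 4.06 and 17.8. Each T-cell library was thus above each keratinocyte library. Across the 5 groups, the log2 fold change of T cells over keratinocytes was 5.15 ± 0.65 (SE), a fold of 35.4, and the quasi-likelihood test of edgeR gave an adjusted p of 0.000262. The call held in all 17 alternatives run for Ccr7 in this comparison, with log2 fold changes between 4.80 and 5.93. Reads across exon borders had the same direction, with unscaled sums of 2300 over the 6 T-cell and 72 over the 4 keratinocyte libraries.

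The other 7 receptors had log2 fold changes of T cells over keratinocytes from 0.69 for Ccr2 to 1.39 for Cxcr5, and none passed an adjusted p of 0.05 in edgeR. Thus 1 of the 8 receptors was called, whereas 49.3% of the 13394 genes tested were called in this comparison. At an unadjusted p under 0.05 there were 2 of 8 receptors, Ccr7 and Cxcr5, against 56.3% of all genes tested, and DESeq2 called 2 against 54.4% of all genes. The groups did not overlap in RPKM for 1 receptor, Ccr7, and for 32.6% of the tested genes. The median log2 fold change of the 8 was 1.20, and that of all genes tested -0.13. With a library left out, the log2 fold changes ranged from 0.07 to 1.65 for Ccr2, from 0.80 to 1.903 for Ccr4, from 0.88 to 2.12 for Ccr8, from -0.089 to 1.487 for Ccr10, from 0.73 to 2.32 for Cxcr4, from 1.03 to 2.32 for Cxcr5 and from 0.68 to 2.13 for Cxcr6. The highest value came in each case without replicate 2 of the keratinocytes alone or of the co-cultured keratinocytes, and the lowest value of Ccr2, Ccr10, Cxcr4 and Cxcr6 without activated replicate 2. Calls for the 7 others depended on the setting and on the keratinocyte libraries. Without filter on low counts 4 receptors were called (39.6% of all genes), as many without replicate 2 of the keratinocytes alone (39.5% of all genes). Without replicate 2 of the co-cultured keratinocytes 47.3% of all genes and 6 receptors were called (Ccr4, Ccr7, Ccr8, Cxcr4, Cxcr5 and Cxcr6).

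In T cells, the order of mean RPKM over the 6 libraries was Ccr7 (318), Cxcr4 (65.8), Cxcr6 (49.6), Cxcr5 (15.3), Ccr4 (11.8), Ccr8 (9.99), Ccr10 (4.47) and Ccr2 (3.26). By its range over the libraries, only Ccr7 was separated from its neighbour. The ranges of all other neighbours in this order overlapped. Within single libraries, Cxcr6 was above Cxcr5 and Ccr8 above Ccr10 in 6 of 6. The remaining neighbours kept their order in 5 of 6. Reads across exon borders, not scaled to length, gave another order below Ccr7. Their sums over the T-cell libraries were 2300 for Ccr7, 350 for Cxcr6, 325 for Cxcr4, 124 for Ccr2 and 113 for Cxcr5. Ccr8 had 78, Ccr4 61 and Ccr10 28. Few exon reads of Cxcr6 and Ccr10 were uniquely assigned, as given below. In keratinocyte libraries the order was led by Cxcr4 (25.7) and Cxcr6 (23.0), followed by Ccr7 (8.64), Cxcr5 (5.64), Ccr4 (5.30), Ccr8 (4.02), Ccr10 (2.66) and Ccr2 (2.01). Here the ranges of all neighbours overlapped, for instance 8.25 to 54.5 for Cxcr4 and 5.89 to 51.7 for Cxcr6. In co-cultured replicate 1 Cxcr6 (8.859) was above Cxcr4 (8.843).

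**Figure D1:**
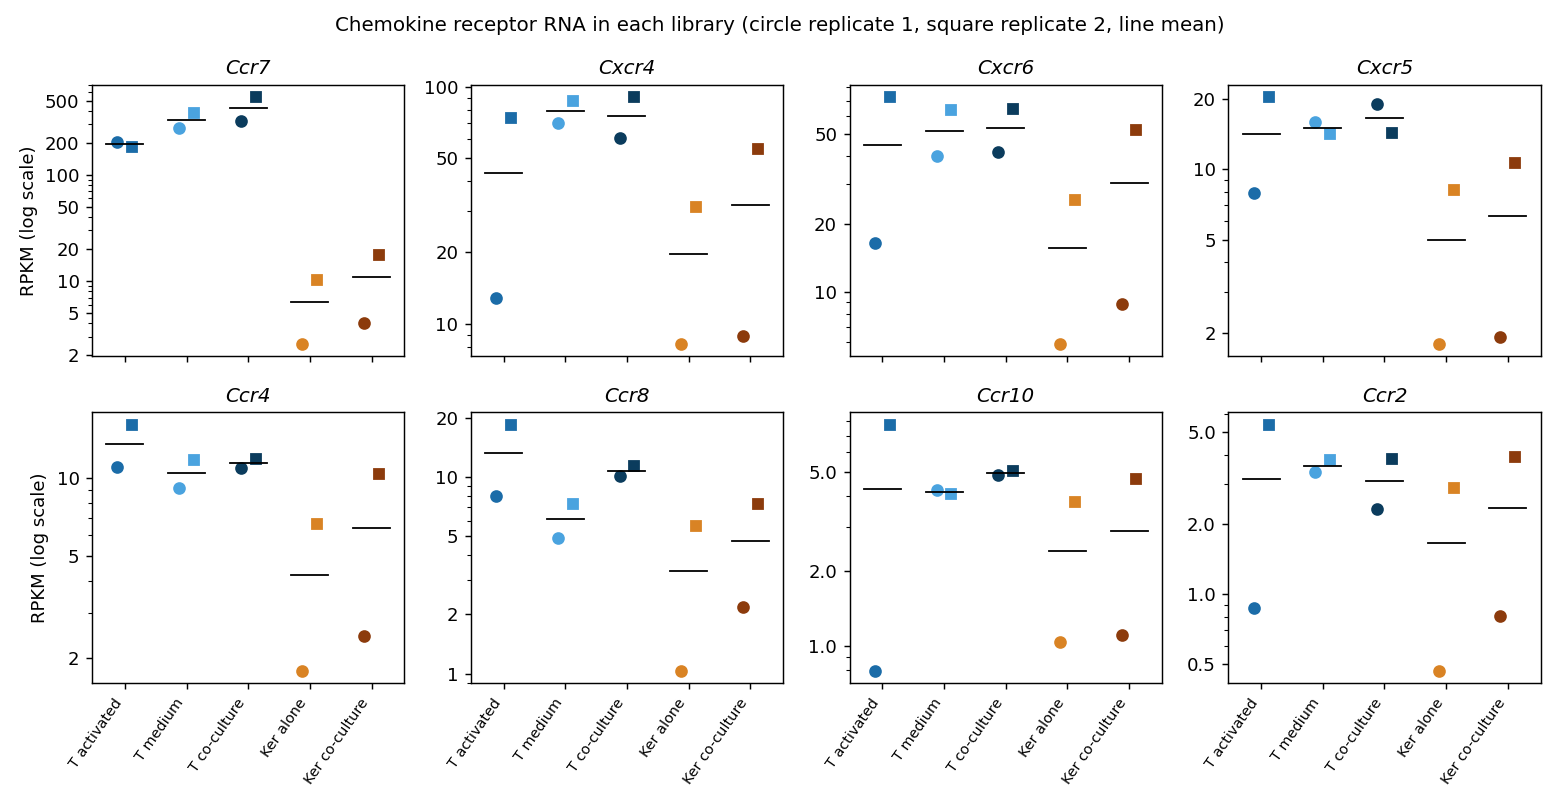
RPKM on a log scale for each receptor, with 1 point per library (circle replicate 1, square replicate 2) and a line at the mean of each group of 2. Ccr7 separates T cells from keratinocytes, whereas for the others the second keratinocyte replicates reach into, or close to, the range of the T-cell libraries.

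To see whether receptor RNA changed when activated T cells were moved to keratinocyte medium or to keratinocytes, the 3 T-cell groups were compared in 1 fit of 6 libraries. Medium and time after activation differed together in the comparisons with activated T cells and cannot be told apart. Both comparisons also share the activated libraries. No receptor passed an adjusted p of 0.05 in edgeR in keratinocyte medium over activated T cells (0 of 8, with 6.54% of 11863 genes called), nor in co-culture over activated T cells (0 of 8, with 10.3% called), nor in co-culture over keratinocyte medium (0 of 8, with 0.261% called). At an unadjusted p under 0.05 these counts were 1, 1 and 0, the 1 being Ccr7 each time, against 25%, 28.8% and 3.45% of all genes. DESeq2 called 0, 1 and 0 receptors, against 16.4%, 19.8% and 0.733% of all genes. Thus 1 of 8 was not above the share of all genes for both comparisons with activated T cells. In all 3 comparisons the median log2 fold change over all genes was -0.01, and the medians of the 8 receptors were 0.26, 0.38 and 0.17.

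Ccr7 RNA was higher in every library of both later groups than in the activated ones. The mean RPKM was 193.5 ± 15.96 (SD, n = 2) in activated T cells, 330.5 ± 74.2 (SD, n = 2) in keratinocyte medium, and 429 ± 155 (SD, n = 2) in co-culture. The log2 fold change was 0.93 ± 0.39 (SE) for keratinocyte medium over activated T cells, with an adjusted p of 0.186 in edgeR. For co-culture over activated T cells it was 1.37 ± 0.39 (SE) with an adjusted p of 0.0636. The last value lies close to the threshold, and over the 14 alternatives the adjusted p ranged from 0.00374 to 0.361 with 3 past 0.05, among them DESeq2 (0.00972), no filter on low counts (0.00374), and the fit without replicate 1 of the co-cultured T cells (0.0287). All 14 log2 fold changes were above 0, between 0.82 and 1.77. Between co-culture and keratinocyte medium Ccr7 differed by 0.44 ± 0.39 (SE), with overlapping libraries. The CD8 and CD3 markers, none of which passed the test, had log2 fold changes in keratinocyte medium and in co-culture over activated T cells of 1.09 and 1.05 for Cd8a, 1.59 and 1.45 for Cd8b1, 1.31 and 1.26 for Cd3d, 0.67 and 0.49 for Cd3e, and 1.16 and 1.11 for Cd3g. Their part in the Ccr7 difference was not tested.

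For Ccr8, the receptor of CCL1, the activated libraries had 7.999 and 18.4 RPKM, those in keratinocyte medium 4.90 and 7.25, and the co-cultured ones 10.1 and 11.3. Keratinocyte medium was thus below both other groups in each library. The log2 fold changes were -0.98 ± 0.55 (SE) for keratinocyte medium over activated cells (adjusted p = 0.318, edgeR) and 0.85 ± 0.55 (SE) for co-culture over keratinocyte medium (adjusted p = 1.0, edgeR). With a library left out, the former ranged from -1.465 without activated replicate 1 to -0.175 without activated replicate 2, and the latter from 0.52 to 1.25 without replicate 1 or 2 in keratinocyte medium. Ccr4, which recognizes CCL17 and CCL22, had 11.04 and 16.05 RPKM in activated T cells, 9.13 and 11.8 in keratinocyte medium, and 10.9 and 11.8 in co-culture. Its log2 fold changes lay between -0.23 and 0.17, each with an SE of 0.39.

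Cxcr4 RNA, coding for the CXCL12 receptor, was at 12.8 and 73.6 RPKM in activated T cells, at 70.1 and 87.2 in keratinocyte medium, and at 60.7 and 90.3 in co-culture. Activated replicate 1 stood alone at the low end. The log2 fold change was 0.98 ± 0.72 (SE) for both later groups over activated T cells, and 0.00 ± 0.71 (SE) between them. Leaving out activated replicate 2, so that only the low library represented activation, gave 2.83 for each of both comparisons, with adjusted p of 0.0396 and 0.0284 in edgeR. Leaving out activated replicate 1 instead gave 0.23 and 0.22, with adjusted p of 0.868 and 0.857 in edgeR, so that the size of the difference rests on which activated library is used. Over the 14 alternatives of each comparison the adjusted p ranged from 0.0396 to 0.868 and from 0.0284 to 0.857. For Ccr10 the log2 fold change of co-culture over activated cells was 0.37 ± 0.89 (SE), with an adjusted p of 0.829 in edgeR. It was 2.89 without activated replicate 2 and -0.485 without activated replicate 1, so that its direction also rests on the activated library used. Activated replicate 1 had 0 uniquely assigned Ccr10 reads.

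Cxcr6 RNA was at 16.4 and 72.4 RPKM in activated T cells, at 39.7 and 63.4 in keratinocyte medium, and at 41.4 and 64.5 in co-culture. Cxcr5 was at 7.92 and 20.3, at 15.97 and 14.1, and at 19.0 and 14.2 RPKM in the same order. The groups overlapped for both genes. Their log2 fold changes in the 3 T-cell comparisons were between 0.09 and 0.44, with SEs between 0.47 and 0.67. For Ccr2, 0.871 and 5.38 RPKM were found in activated T cells, 3.36 and 3.77 in keratinocyte medium, and 2.33 and 3.83 in co-culture. For Ccr10 these values were 0.793 and 7.76, 4.24 and 4.10, and 4.87 and 5.04. Activated replicate 1 was the lower of the pair for all receptors but Ccr7. Summed myeloid markers were at 12.1 RPKM in this library and at 64.2 in activated replicate 2, most of it Lyz2 (10.6 and 57.4 RPKM). The part of myeloid markers in these differences was not tested.

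Between the T-cell groups, receptors with libraries that did not overlap numbered 2 in keratinocyte medium over activated cells (Ccr7 higher and Ccr8 lower, against 54.6% of all tested genes), 1 in co-culture over activated cells (Ccr7, against 57.6%), and 2 in co-culture over keratinocyte medium (Ccr8 and Ccr10, both higher, against 27.4%). With 2 libraries per group an exact permutation test cannot reach a two-sided p below 0.333.

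**Figure D2:**
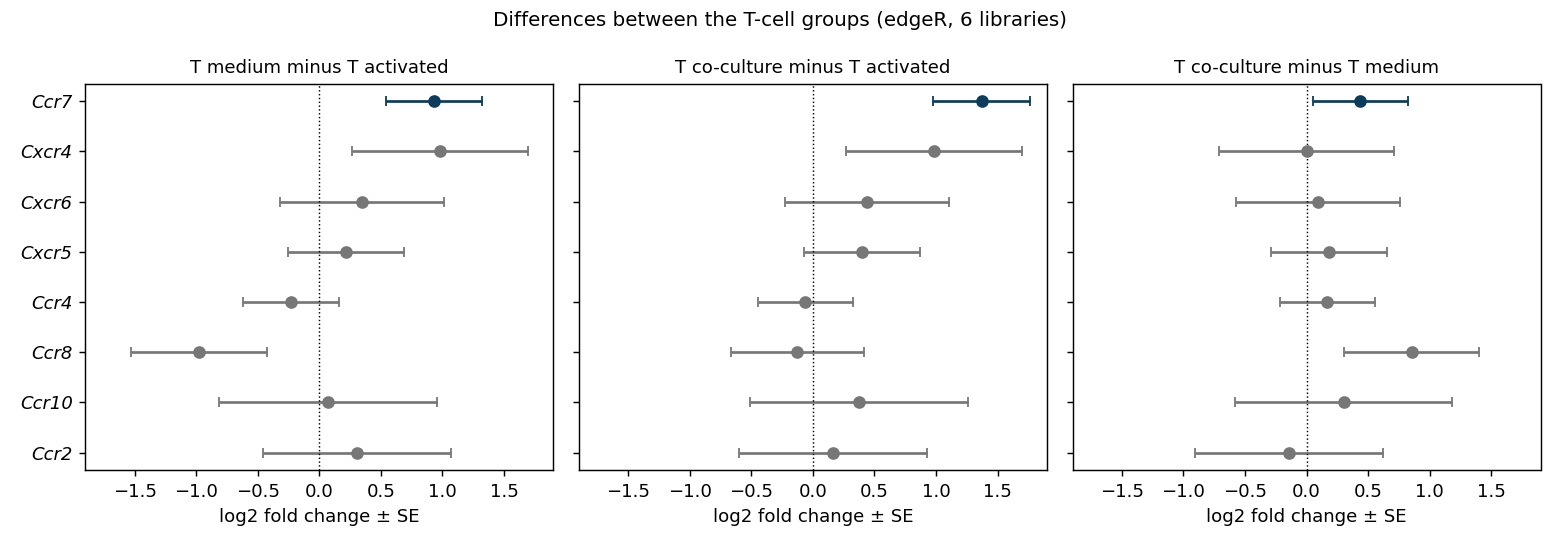
Log2 fold changes with standard errors of the 8 receptors in the 3 comparisons of T-cell groups, from 1 edgeR fit of 6 libraries. Ccr7 lies 0.93 and 1.37 above activated T cells, and the other receptors have standard errors between 0.39 and 0.89.

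In the 4 keratinocyte libraries, 23 to 1647 exon reads were counted for the 8 receptors, and their levels differed more between replicates than between groups. For Ccr10, only 2, 15, 0 and 2 of these reads were uniquely assigned. For Cxcr6, which had the highest count of 1647, they were 16, 39, 12 and 53. None was called in co-cultured keratinocytes over keratinocytes alone in edgeR, where 0% of 12515 genes were called (7.2% at an unadjusted p under 0.05). No receptor had an unadjusted p under 0.05 and DESeq2 called 0 receptors, against 1.49% of all genes. Log2 fold changes were above 0 for all 8, from 0.37 for Ccr10 to 1.06 for Cxcr6, with SEs from 0.96 to 1.13. All 8 overlapped between the groups, whereas 44.1% of tested genes did not. Replicate 2 exceeded replicate 1 for each receptor, by 3.64 fold (Ccr10) to 6.13 fold (Ccr2) in keratinocytes alone and by 3.33 fold (Ccr8) to 6.16 fold (Cxcr4) in co-culture. The keratins Krt5 and Krt14 differed by 0.799 to 1.49 fold between these replicates. When the effect of co-culture on T cells (over keratinocyte medium) was set against that on keratinocytes, the difference passed for 0 of 8 receptors in edgeR, with 0 at an unadjusted p under 0.05 and 0.576% of 13202 genes called, at log2 differences from -0.98 to 0.24 and SEs from 1.15 to 1.38.

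The receptor RNA of the keratinocyte libraries moved with the T-cell markers Cd4 and Cd3, and with some of the markers of other leukocytes. Cd4 differed 3.81 fold and 5.64 fold between the replicates of keratinocytes alone and in co-culture. Over the 4 libraries the receptors spanned 4.54 fold (Ccr10) to 8.77 fold (Cxcr6) in RPKM, but only 1.19 fold (Cxcr6) to 1.69 fold (Ccr8) when divided by the Cd4 RPKM of the same library. All 8 stayed within 2 fold by this measure, which was chosen after seeing the data, against 3.76% of 10578 genes with a mean of at least 1 RPKM. This was not particular to them. The receptors Cxcr3 (1.19 fold) and Ccr6 (1.47 fold), S1pr1 (1.14 fold), Il7r (1.12 fold), Klf2 (1.30 fold) and Lyz2, the lysozyme gene of myeloid cells (1.42 fold), also stayed within 2 fold, as did Cd3g with 1.05 fold, while Krt5 spanned 6.88 fold. Among markers above 0 in all 4 libraries, 3 of 3 genes of all T cells, 4 of 5 of CD4 and regulatory T cells (Cd4 itself included), 2 of 5 myeloid, 3 of 3 dendritic, 1 of 3 B-cell and 0 of 1 NK genes did so. The 3 dendritic genes were Itgax, H2-Aa and Cd74, out of 7 listed. The remaining ones, Cd207, Flt3, Xcr1 and Siglech, were at 0 to 0.264 RPKM in these libraries. Summed myeloid markers were at 9.45 and 32.2 RPKM in keratinocytes alone and 10.5 and 45.8 in co-culture, and dendritic markers at 9.11, 35.6, 14.4 and 60.8 RPKM in the same order. Most of the myeloid sum was Lyz2 (6.69, 27.4, 7.30 and 37.6 RPKM). Most of the dendritic sum was H2-Aa (3.26, 15.7, 6.10 and 26.9 RPKM) and Cd74 (5.60, 19.4, 8.17 and 33.4 RPKM). The markers Cd3d, Cd3e and Cd3g added up to 67.2 to 450.4 RPKM over these libraries. Of the 5 listed markers of all T cells, Trac and Trbc2 were at 0. By contrast Cd8a was between 0.118 and 1.16 RPKM in these libraries. Divided by Cd4 RPKM, Cd8a spanned 3.4 fold and Cd8b1 5.72 fold over them. The group of keratinocytes alone is labelled as keratinocytes only. The part of RNA from T cells or other leukocytes in the receptor levels of keratinocyte libraries was not tested. In bulk RNA, fewer cells of a type and less RNA per cell cannot be told apart.

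For the T-cell libraries the same ratio separated the receptors. Ccr7 per Cd4 was 1.78 to 12.2, above the keratinocyte range of 0.211 to 0.271 in 6 of 6 libraries. Cxcr4 (0.719 to 1.46), Cxcr6 (0.591 to 1.04) and Cxcr5 (0.186 to 0.471) were above the range of keratinocytes in 5 of 6, Ccr8 in 4, and Ccr4 in 3. Ccr2 (0.0361 to 0.0618) and Ccr10 (0.0472 to 0.0813) exceeded the highest ratio of keratinocytes, 0.0659 and 0.0908, in 0 of 6 libraries. Lyz2 exceeded its own highest ratio of keratinocytes in 0 of 6 as well. The other myeloid markers were not compared in this way, so that Lyz2 does not stand for their list.

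A level linked to Cd4 was computed as the Cd4 RPKM of a T-cell library multiplied by the mean ratio of a receptor in keratinocytes alone, again after seeing the data. It takes for granted that this ratio also holds in T-cell libraries, which was not tested. The level is thus not a measured share of RNA from other cells. It amounted to 1.89% to 12.9% of the Ccr7 RPKM of T cells, to 49.4% to 99.9% for Cxcr4, to 52.7% to 92.9% for Cxcr6, and to 36.6% to 92.7% for Cxcr5. The values were 23.5% to 114% for Ccr4 and 23.0% to 150% for Ccr8. With the mean ratio of keratinocytes alone, those of Ccr2 (86.5% to 148%) and Ccr10 (109% to 188%) lay near or above 100% in each library. These percentages depend on the ratio used, which for Cxcr4 was 0.591 to 0.722 over the 4 keratinocyte libraries. For Ccr2 it was 0.0409 to 0.0659 (0.0534 used), for Ccr10 0.0557 to 0.0908 (0.0888 used) and for Ccr8 0.0861 to 0.146 (0.1095 used). The lowest ratios would give lower percentages, so that values near or above 100% in each library rest on the ratio used. With this level taken away, Ccr7 kept 179.8 RPKM on average in activated T cells, 314 in keratinocyte medium, and 414 in co-culture. In the same order Cxcr4 kept 0.401, 27.3 and 30.0, Cxcr6 11.7, 12.3 and 18.2, and Cxcr5 3.81, 2.70 and 5.68. For Ccr8 the means were 6.70, -1.75 and 3.76, and for Ccr4 4.35, -0.61 and 1.60. The means of Ccr2 and Ccr10 were below 0 in each group. Values below 0 are not possible RNA levels. Since this level has no error of its own, these values carry no test.

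**Figure D3:**
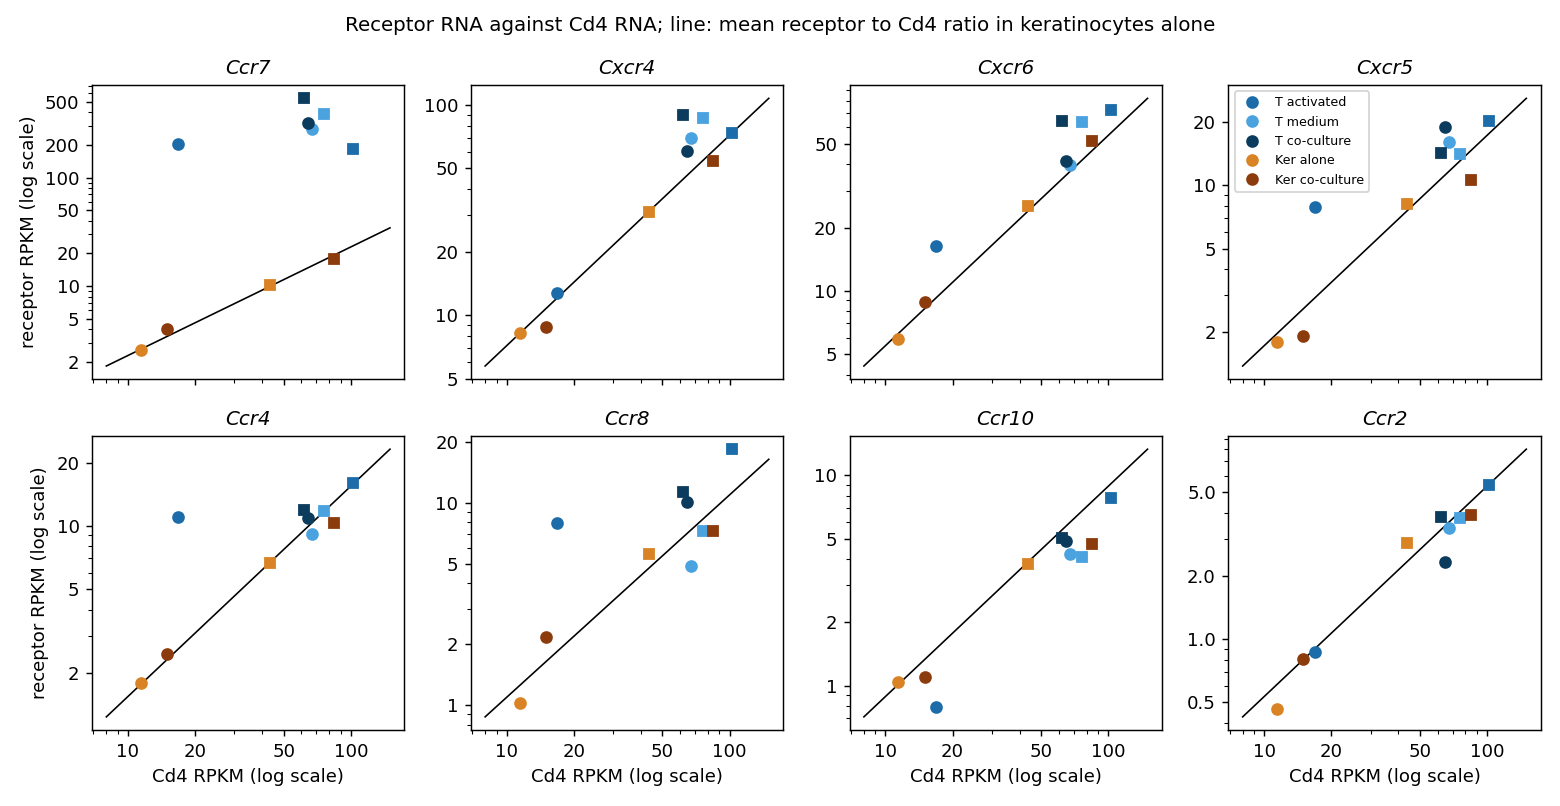
RPKM of each receptor against that of Cd4, both on log scales, with 1 point per library and a line at the mean ratio of keratinocytes alone. The keratinocyte libraries lie near the line for all 8 receptors, Ccr7 of T cells lies far above it, and Ccr2 and Ccr10 of T cells lie close to it or below.

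Cxcr6 and Ccr10 were counted under a special condition. All 1931 exon bases of Cxcr6 lie within the borders of Fyco1, and all 1726 of Ccr10 within those of Cntnap1, each on the opposite strand and without shared exon bases. Of the Cxcr6 exon reads 2.45% to 7.41% were uniquely assigned by the authors' tables, and of the Ccr10 exon reads 0% to 13.5%. For both genes the uniquely assigned reads equalled the exon-exon reads in 10 of 10 libraries, whereas this was the case in 0 libraries for the other 6 receptors. Cxcr6 was thus supported by 12 to 103 reads across its exon border per library, in sum 350 over the 6 T-cell and 120 over the 4 keratinocyte libraries. Ccr10 had 0 to 15 such reads, present in 7 of 10 libraries. Exon reads of Cntnap1 itself numbered 0 to 46, and of Fyco1 21 to 1019. On uniquely assigned reads the log2 fold change of Cxcr6 for keratinocyte medium over activated T cells was -0.48 instead of 0.35, and Ccr10 did not pass the filter on low counts. Whether the sequencing kept the strand is not given in the sources used here. Cxcr5 shares 110 of its exon bases with Bcl9l, and 97.8% to 100% of its reads were uniquely assigned.

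**Figure D4:**
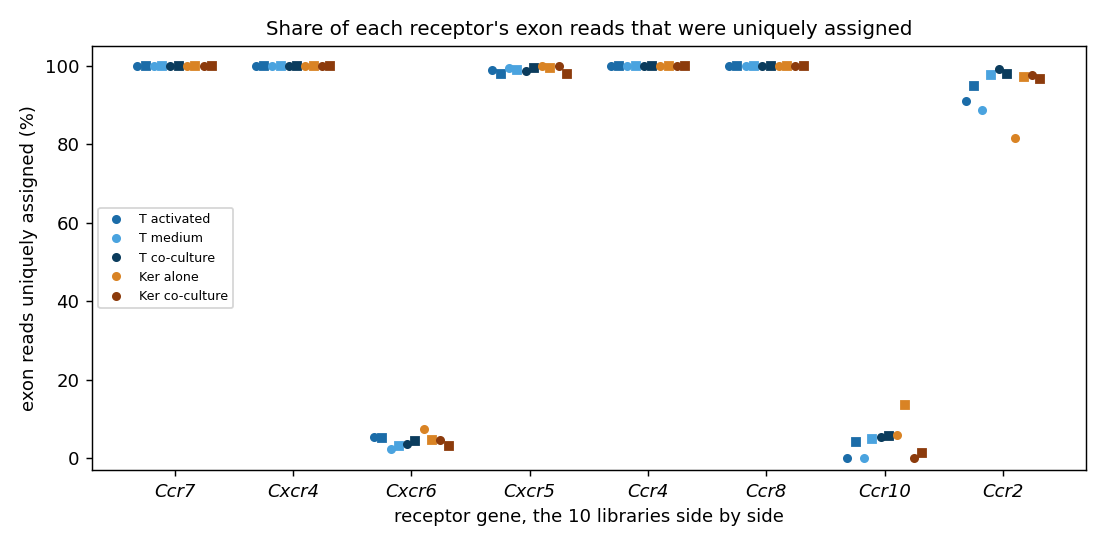
Percentage of exon reads that the deposited tables assign uniquely, for each receptor in the 10 libraries. Cxcr6 and Ccr10 lie between 0% and 13.5%, and the 6 other receptors above 80%.

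Among the 14 listed ligand genes of these receptors, Ccl22, Ccl1 and Cxcl16 reached the highest levels in these libraries. Ccl22, the CCR4 ligand, was at 20.9 and 21.0 RPKM in activated T cells and fell to 2.34 and 0.942 in keratinocyte medium (log2 fold change -3.56 ± 0.50 SE, adjusted p = 0.0143, edgeR) and to 2.07 and 1.75 in co-culture (-3.26 ± 0.50 SE, adjusted p = 0.00941, edgeR). It was the only one of 4 tested ligands called in either comparison, against 6.54% and 10.3% of all genes. Ccl1, the CCR8 ligand, was at 14.5 and 7.47 RPKM in activated T cells and at 1.29 to 4.04 in the later groups, without a call (adjusted p = 0.228 and 0.233, edgeR). Cxcl16, the CXCR6 ligand, had 54.4 and 47.8 RPKM in the libraries of keratinocytes alone, 94.4 and 81.5 in those of co-cultured keratinocytes, while T cells had 0.681 to 1.85. In co-culture both libraries were higher, with a log2 fold change of 0.85 ± 0.28 (SE), an unadjusted p of 0.0302 and an adjusted p of 0.658 in edgeR. Ccl19 and Ccl21a, the CCR7 ligands, were listed at 0 in all libraries but for 0.233 RPKM of Ccl19 in replicate 1 of T cells in keratinocyte medium.

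Of 15 other chemokine receptors, 9 were tested in T cells, and Ccr9, known for homing to the gut, was the only one called, in keratinocyte medium over activated cells (1 of 9, with 6.54% of all genes called). In co-culture over activated cells 0 of 9 were called, against 10.3% of all genes. It rose in keratinocyte medium from 0.468 and 1.503 to 8.42 and 9.12 RPKM (log2 fold change 3.28 ± 0.66 SE, adjusted p = 0.030, edgeR) and was at 4.77 and 2.05 RPKM in co-culture (1.93 ± 0.63 SE, adjusted p = 0.0894, edgeR). The list of 20 genes for receptor signalling had 19 genes tested, with 0 called in keratinocyte medium and 1 in co-culture over activated cells, against 6.54% and 10.3% of all genes. The 1 was Rgs10, which codes for a regulator of G protein signalling, at 29.1 and 53.4 RPKM in activated T cells and 111 and 120 in co-culture (log2 fold change 1.67 ± 0.40 SE, adjusted p = 0.0365, edgeR). The median log2 fold changes of this list were 0.64 and 0.69.

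All 21 genes of the list of homing and T-cell state genes were tested in both comparisons with activated T cells. In keratinocyte medium 3 were called higher and 1 lower, against 6.54% of all genes called. In co-culture 2 were called higher and 1 lower, against 10.3% of all genes. Itgae, the gene of the E-cadherin-binding integrin CD103, rose in both (4.28 ± 0.83 SE and 3.46 ± 0.80 SE, adjusted p = 0.0270 and 0.0329, edgeR). Irf4, a factor induced by T-cell receptor signals, fell in both (-3.11 ± 0.40 SE and -3.08 ± 0.40 SE, adjusted p = 0.0122 and 0.00693, edgeR). Tcf7 rose in keratinocyte medium (2.25 ± 0.51 SE, adjusted p = 0.0401, edgeR). In co-culture Tcf7 had a log2 fold change of 1.88 ± 0.50 (SE), just short of the threshold (adjusted p = 0.051, edgeR). Klf2 and S1pr1, linked to egress from lymphoid organs, had log2 fold changes of 1.42 and 1.38 in keratinocyte medium without passing the test. Of 11 calcium and NFAT-linked genes, 6 were called in each of both comparisons, against 6.54% and 10.3% of all genes, and all 6 were lower. These were Ifng, Ccl3, Ccl4, Xcl1, Egr2 and Egr3, with log2 fold changes from -6.36 for Ifng to -2.39 for Egr3 in keratinocyte medium (adjusted p from 0.00345 to 0.0255, edgeR) and from -6.77 for Ifng to -2.64 for Egr2 in co-culture (adjusted p from 0.00162 to 0.0138, edgeR).

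Over the 6 T-cell libraries, the genes with the pattern most like that of Ccr7, by Pearson's r of log2(RPKM + 0.1) among 6275 genes, were Aph1a (0.993), Susd1 (0.991) and Sirt3 (0.99). For Cxcr4 they were Sdcbp2 (0.991), Rsrp1 (0.991) and 2610524H06Rik (0.99), for Cxcr6 Borcs6 (0.99), Susd2 (0.987) and Ildr1 (0.986), and for Ccr2 Rora (0.997), AW011738 (0.995) and Ltb4r1 (0.992). Those of Cxcr5 were Igkv4-71, an immunoglobulin light-chain gene (0.997), Sostdc1 (0.989) and Rarg (0.986). Summed B-cell markers were at 31.0 and 33.1 RPKM in activated T cells, 45.5 and 93.5 in keratinocyte medium, and 17.0 and 27.6 in co-culture. Cxcr5 itself was at 7.92 and 20.3, 15.97 and 14.1, and 19.0 and 14.2 RPKM in the same libraries. The part of these markers in the Cxcr5 level was not tested. For Ccr4 the nearest genes were Sumo3_2 (0.977), Zswim7 (0.943) and Gm20721 (0.941), for Ccr8 Sumo3_2 (0.976), Cystm1 (0.97) and Cela3b (0.968), and for Ccr10 Ephx1 (0.992), Rnase4 (0.99) and Tox (0.985). These points share libraries and depth, and 6 values of so many genes leave many high correlations. Over all 10 libraries the correlation with Cd4 was 0.977 for Ccr2, 0.964 for Cxcr6, 0.963 for Ccr10, 0.962 for Cxcr4, 0.895 for Cxcr5, 0.813 for Ccr4, 0.779 for Ccr8 and 0.62 for Ccr7.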

How the data were processed

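The authors selected poly(A) RNA and used a NEBNext Ultra II kit for the libraries. Their single-end reads were aligned to GRCm38 with CLC Genomics Workbench 7.5.1. The annotation release and the setting for strand are not given in the sources used here. The deposited tables hold counts of exon reads, uniquely assigned reads and exon-exon reads, without normalization, and RPKM values, deposited with a decimal comma. Columns of comparisons between samples were not used. Counts were tested in R 4.3.3 by edgeR 4.0.16 (glmQLFit and glmQLFTest after filterByExpr and TMM, Benjamini-Hochberg adjustment over all genes tested, threshold 0.05), with 1 fit for the 6 T-cell libraries, 1 for the 4 keratinocyte libraries and 1 for all 10. The SE is the size of the log2 fold change divided by the root of F. Alternatives were no filter, library size, DESeq2 1.42.0, a limma 3.58.1 fit of log2 RPKM with 1 or 0.1 added, at least 10 reads in every library, uniquely assigned reads, all libraries in 1 fit, the replicate number as block, and each library left out. The tests were tried on simulated data with known changes and the same spread for all genes. That spread was not taken from these replicates, so the trial does not show how the tests perform on them. Python 3.11.15 with numpy 2.4.6, pandas 2.3.3 and matplotlib 3.10.9 was used. The 8 receptors and all lists were chosen with earlier results of these data known. Named genes are the receptors, members of the lists where a result turns on them, and per receptor the 3 genes most like it. Gene structures come from GENCODE vM21, whose coordinates matched for all 8 receptors. Values per Cd4 and the Cd4-linked level were added once values were known. The values of 1 listed gene are not reported here.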

Additional observations from a re-analysis of the deposited data

How the results depend on the processing

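The precision is limited by 2 libraries per group, and where a library was left out, the lone library of its group was assumed to vary like the others. The numbers of receptors called were the same under all alternatives for co-culture over keratinocyte medium and for keratinocytes (0 each, with 0 to 0 when a library was left out). For keratinocyte medium over activated T cells, 0 to 1 were called when a library was left out. For co-culture over activated T cells this range was 0 to 2, and DESeq2 and no filter on low counts called 1 each. For T cells over keratinocytes the range was 1 to 6, and DESeq2 called 2, no filter 4, limma on log2(RPKM + 1) 2 and on log2(RPKM + 0.1) 3. The cause was not tested. With the replicate number as a block, 2 genes but 0 receptors were called in keratinocytes, and 0 receptors also with the block and at least 10 reads in every library. Same-numbered keratinocyte libraries deviated together (r = 0.558 over 12515 genes), but the pairing rests on 2 numbers only. RPKM was higher in co-culture at both numbers for 8 of 8 receptors and for Cd4, and for 33.8% of 12515 genes, and with the block the log2 fold changes of the receptors were 0.29 to 0.89 with adjusted p of 0.182 to 0.732 in edgeR.

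Of the alternatives that kept all libraries, 306 values of single receptors kept direction and side of the threshold, 9 passed it in addition and 8 changed sign. The latter were those of Ccr10 (library size, -0.018) and Cxcr6 (uniquely assigned reads, -0.48) for keratinocyte medium over activated T cells, of Ccr2 (library size, -0.012) and Ccr4 (all 10 libraries, 0.005) for co-culture over activated T cells, and of Cxcr4 for co-culture over keratinocyte medium (-0.071 with library size, -0.007 without filter, and -0.078 and -0.079 in the limma fits). With a library left out, 40 of the values changed sign. Their ranges for keratinocyte medium over activated T cells were -0.47 to 2.24 for Ccr2, -0.50 to 0.13 for Ccr4, -0.78 to 2.59 for Ccr10, -0.32 to 1.13 for Cxcr5 and -0.35 to 1.88 for Cxcr6. For co-culture over activated T cells they were -0.62 to 2.09 for Ccr2, -0.33 to 0.30 for Ccr4, -0.62 to 0.67 for Ccr8, -0.49 to 2.89 for Ccr10, -0.14 to 1.30 for Cxcr5 and -0.27 to 1.96 for Cxcr6. For co-culture over keratinocyte medium they were -0.67 to 0.24 for Ccr2, -0.085 to 0.441 for Ccr4, -0.11 to 0.84 for Ccr7, -0.43 to 0.33 for Cxcr4 and -0.38 to 0.56 for Cxcr6. For keratinocytes they were -1.07 to 2.49 for Ccr2, -0.80 to 2.00 for Ccr4, -0.67 to 2.24 for Ccr7, -0.62 to 2.34 for Ccr8, -1.14 to 1.64 for Ccr10, -1.18 to 2.11 for Cxcr4, -1.39 to 1.97 for Cxcr5 and -0.84 to 2.53 for Cxcr6. For T cells over keratinocytes, Ccr10 ranged from -0.089 to 1.487.

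The number of all genes called moved more. It was 776 for keratinocyte medium over activated T cells (1947 with DESeq2, 1945 without filter, 24 to 62 without 1 of 3 libraries), 1222 for co-culture over activated T cells (2344 with DESeq2, 2425 without filter, 266 and 498 without 1 of 2 libraries), and 31 for co-culture over keratinocyte medium (87 with DESeq2, 141 without filter, 0 with at least 10 reads, 84 and 113 with limma, 83 with all libraries, 16 to 52 without 1 of 3 libraries). In keratinocytes 0 were called (186 with DESeq2, 11 without filter, 4 with all libraries, 1 with block and at least 10 reads, 1164 and 21 without replicate 1 or 2 of the co-culture), and 6601 for T cells over keratinocytes (4343 with at least 10 reads).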
